A study of Mus musculus with 16 samples.

Results

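The axon growth cytoskeleton genes followed here are 10 genes of the 49671 in the tables, namely *Gap43*, *Basp1*, *Stmn1*, *Stmn2*, *Stmn3*, *Stmn4*, *Tubb3*, *Tubb2b*, *Dcx* and *Dpysl3*. They form a list of growth cone and microtubule genes given by name, and only the wells were selected on counts. They were read in proprioceptors, the dorsal root ganglion neurons that report muscle stretch and tension. A well was taken as a proprioceptor when it held at least 10000 unique molecular identifiers (UMIs, 1 per captured transcript), *Etv1* at 300 or more per 1000000 UMIs (CPM), at least 1 UMI each of *Pvalb* and *Ntrk3*, and *Apoe* plus *Fabp7* under 200 CPM. This rule took 585 of 1536 wells. Of these, 279 of 960 were from mouse embryos at e15.5 (10 libraries, 6 to 64 wells in each) and 306 of 576 from pups at p1 (6 libraries, 8 to 75 wells in each).

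The e15.5 neurons came from PvtdTom embryos, in which a bacterial artificial chromosome drives tdTomato from the parvalbumin promoter. The p1 neurons came from Trpv1Cre; PvFlp; Ai65 mice, in which cells that have used both promoters are marked and for which the study's methods name 2 different Trpv1Cre lines, and from PvCre; Ai14 mice, in which the parvalbumin lineage is marked. The labels do not say which cross or which spinal level each library holds. Embryonic cells were sorted by fluorescence. For the p1 cells the labels also give sorting, whereas the study's methods give picking by hand. Age, mouse line, library preparation and, by the methods, isolation therefore changed together and cannot be told apart in any comparison of the ages. The question put to the data was how far these genes differ between the ages, and whether e15.5 proprioceptors differ in them from other sensory neurons of the same libraries.

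A growing axon is led by its growth cone, where microtubules from the shaft meet a cortex of actin under the membrane. *Gap43* and *Basp1* encode acidic proteins on the inner face of that membrane. Stathmins (*Stmn1* to *Stmn4*) bind tubulin dimers and favour microtubule disassembly, *Tubb3* and *Tubb2b* encode beta-tubulins used in neurons, *Dcx* (doublecortin) binds along microtubules of young and migrating neurons, and *Dpysl3* (also called CRMP4) belongs to the collapsin response mediators that act downstream of guidance cues.

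Library totals ran from 3701900 to 9299431 UMIs at e15.5 and from 386517 to 8814472 at p1. The p1 library 3 stood apart, with a median of 1409 UMIs per well and 8 proprioceptor wells that held 134145 UMIs together. Proprioceptor wells held a median of 117889 UMIs at e15.5 and 52867 at p1, and a median of 5.11% and 11.0% of their UMIs were mitochondrial. In e15.5 library 6 that share was 1.09%. Of the proprioceptor markers checked, *Runx3*, *Whrn* and *Spp1* were not used by the rule, and all 3 were detected in the proprioceptor sum of every library at both ages, *Runx3* at 237 to 317 CPM at e15.5 and 253 to 359 CPM at p1. The summed glial list (7 genes) stood at 24.7 CPM (13.1 to 45.4) at e15.5 and 119 CPM (22.4 to 190) at p1. The 5 markers of postmitotic sensory neurons, which include none of the 10 genes, summed to 3813 CPM (3567 to 4346) at e15.5 and 2655 CPM (2362 to 2938) at p1. Of these, *Snap25* went up, from 364 CPM at e15.5 to 1000 CPM at p1. *Prph* (1818 to 851 CPM), *Avil* (801 to 374 CPM), *Isl1* (627 to 283 CPM) and *Pou4f1* (204 to 147 CPM) went down. The part of these values in the differences between ages was not tested.

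On GRCm38 (GENCODE M21) 9 of the genes lie at chr16:42248442-42340651 (*Gap43*), chr15:25363277-25413764 (*Basp1*), chr4:134468320-134473843 (*Stmn1*), chr3:8509360-8561606 (*Stmn2*), chr2:181306459-181314500 (*Stmn3*), chr14:66344296-66361680 (*Stmn4*), chr8:123411424-123422015 (*Tubb3*), chr13:34126748-34130466 (*Tubb2b*) and chrX:143855842-143933311 (*Dcx*). Promoter sequence was at hand for 4 of the 10 genes (*Dcx*, *Tubb3*, *Basp1* and *Stmn3*), and 3 are shown because they span the range of the age comparison, from the gene with the largest difference (*Dcx*) to genes with no called difference (*Tubb3* and *Basp1*). Each run holds the 250 bases before a RefSeq transcript start on GRCm38.p6, read 5′ to 3′ on the gene's strand. *Dcx* lies at chrX:143933220-143933469 on the minus strand, *Tubb3* at chr8:123411303-123411552 on the plus strand and *Basp1* at chr15:25413765-25414014 on the minus strand. *Dcx* has 2 such windows, and the one before its upstream start is shown. The *Dcx* and *Tubb3* windows overlap the GENCODE M21 genes placed above, whose annotated starts lie further upstream than these RefSeq starts. Capitals mark matches, on either strand, to the letters TATAAA of the TATA box, to the letters CCAAT of the box of that name, and to the letters GGGCGG of the GC box. The 2 GC box matches nearest to the start overlap in *Basp1*.
Dcx: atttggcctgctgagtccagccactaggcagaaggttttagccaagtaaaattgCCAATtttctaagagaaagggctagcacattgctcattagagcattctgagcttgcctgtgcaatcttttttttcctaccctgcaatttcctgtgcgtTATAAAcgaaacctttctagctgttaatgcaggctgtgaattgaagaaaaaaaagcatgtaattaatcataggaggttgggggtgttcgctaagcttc
Tubb3: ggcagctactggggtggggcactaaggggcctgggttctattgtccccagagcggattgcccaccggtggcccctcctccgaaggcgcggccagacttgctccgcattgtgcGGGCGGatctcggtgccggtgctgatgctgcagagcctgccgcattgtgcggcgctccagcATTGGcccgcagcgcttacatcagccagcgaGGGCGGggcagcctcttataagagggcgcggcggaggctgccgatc
Basp1: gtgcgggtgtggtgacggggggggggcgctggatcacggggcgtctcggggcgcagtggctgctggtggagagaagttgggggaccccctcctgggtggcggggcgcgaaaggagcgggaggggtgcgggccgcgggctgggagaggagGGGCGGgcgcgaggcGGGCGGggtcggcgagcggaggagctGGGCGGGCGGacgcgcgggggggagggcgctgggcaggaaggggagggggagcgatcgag
The *Dcx* window was 41.6% G and C, with 1 TATA box match 98 bases and 1 CCAAT match 196 bases before the start, and no GC box match. The *Tubb3* window was 68.0% G and C and held GC box matches 138 and 46 bases before the start. It also held a CCAAT match, on the other strand, 77 bases before the start. The *Tubb3* matches at 77 and 46 bases lie inside the gene as GENCODE M21 places it. *Basp1*, at 78.8% G and C, held 4 GC box matches between 101 and 56 bases before the start, and *Stmn3*, at 48.8%, held none of the 3 motifs. Across all 32851 windows of this length the median was 52.4% G and C, and the TATA box letters were found in 12.4%, those of the CCAAT box in 33.8% and those of the GC box in 32.7%. A match is only a stretch of letters, and no window of the other genes was examined.

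At e15.5 the levels of these genes in proprioceptors ran from among the highest of all transcripts to moderate ones. CEL-Seq2 reads the 3′ end and counts a molecule once whatever its length, so CPM can be set side by side between genes, although capture differs between 3′ ends and was not corrected. *Stmn2* led, with a mean of 4600 CPM and a median rank of 14.5 among 27655 detected genes, while *Stmn4* and *Stmn1* had median ranks of 400.5 and 1048. *Dpysl3* (2288 CPM), *Basp1* (2219 CPM) and *Tubb3* (1993 CPM) followed, then *Tubb2b* (1585 CPM), *Gap43* (1458 CPM), *Stmn3* (1031 CPM), *Dcx* (731 CPM), *Stmn4* (332 CPM) and *Stmn1* (190 CPM). Neighbours in this order overlapped in their range over libraries from *Dpysl3* to *Gap43*, and again for *Stmn4* and *Stmn1*. Together the 10 genes took 1.64% ± 0.093 (SD, n = 10 libraries) of all UMIs. At p1 they took 1.10% ± 0.118 (n = 6), from 0.931% to 1.29%, and every p1 library lay below the lowest e15.5 library (1.48%). In p1 proprioceptors the order was *Stmn2* (3076 CPM), *Basp1* (1959 CPM), *Tubb3* (1710 CPM), *Dpysl3* (1568 CPM), *Tubb2b* (848 CPM), *Stmn3* (839 CPM), *Gap43* (719 CPM), *Stmn4* (141 CPM), *Dcx* (71.5 CPM) and *Stmn1* (32.2 CPM). There the neighbours from *Stmn2* to *Dpysl3* overlapped in range, and so did those from *Tubb2b* to *Gap43*.

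**Figure D1:**
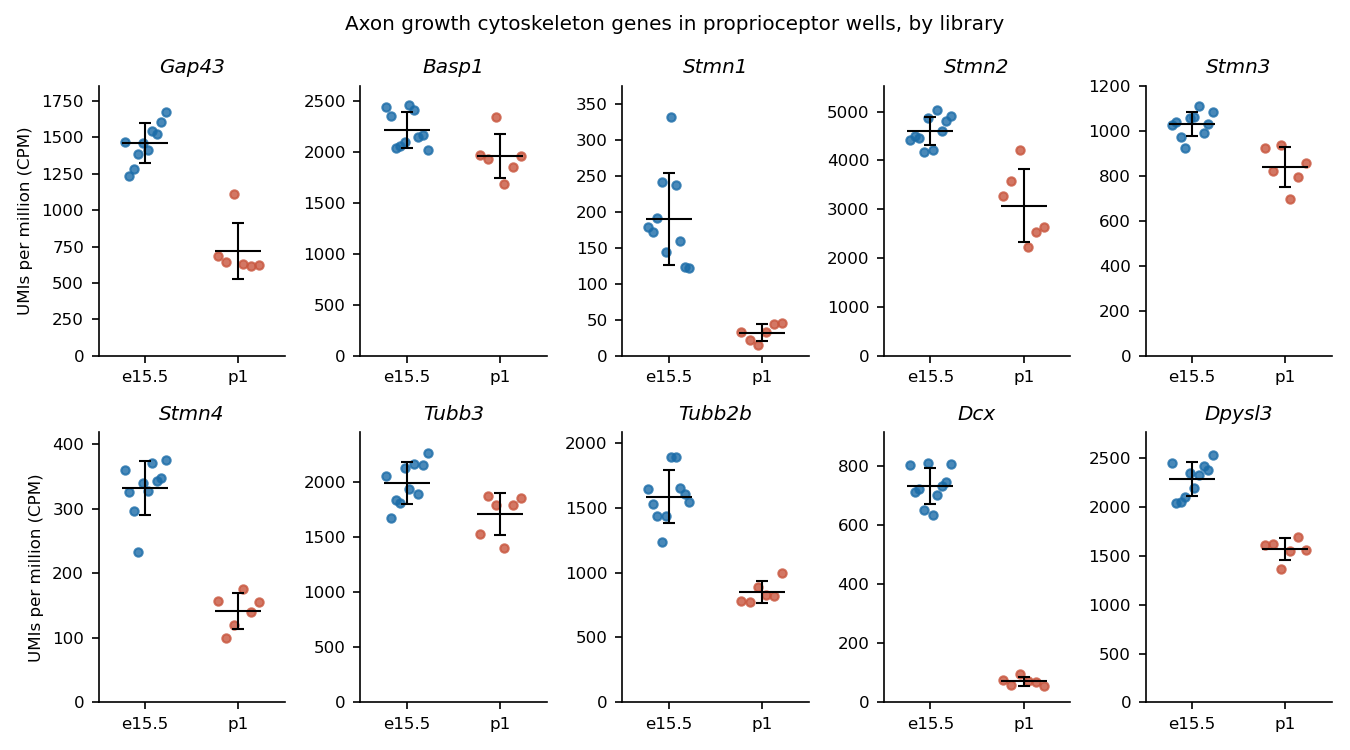
Level of each gene in proprioceptor wells, as CPM (linear axis from 0), for the 10 e15.5 libraries (blue) and 6 p1 libraries (red). Each point is the sum over 1 library's wells, and the bar is the mean ± SD. Dcx falls from 633 to 809 CPM at e15.5 to 56.7 to 96.9 CPM at p1, and the ranges of Stmn2, Stmn3, Tubb3 and Basp1 overlap.

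Sums per library were compared between ages with edgeR's quasi-likelihood test, with the trimmed mean of M values (TMM) as scaling and Benjamini-Hochberg adjustment over all 12743 genes tested. *Dcx*, *Stmn1*, *Stmn4*, *Gap43*, *Tubb2b*, *Stmn2* and *Dpysl3* were lower at p1, none of the 10 was called higher, and *Stmn3*, *Tubb3* and *Basp1* did not pass the threshold of 0.05. In the same test 30.7% of all genes were called higher at p1 and 32.3% lower, against 7 of the 10 called lower. The median log2 fold change was -0.50 over the 10 genes and -0.03 over all genes, and 2 of the 10 genes against 10.1% of all genes fell to a log2 fold change of -1 or less. The level of scaling bears on these values, since dividing by total UMIs alone moved the median of all genes to -0.28. With that scaling 2713 genes were called higher and 5739 lower, so that 32.1% of the calls were higher in place of 48.7%, and with means of log2(CPM + 10) over wells tested by limma the calls were 929 and 5719 (14.0% higher, median of all genes -0.56). The 7 genes were called lower under both. They were called lower also without the shallow p1 library 3, at log2 fold changes of -3.20 (*Dcx*), -2.16 (*Stmn1*), -0.94 (*Stmn4*), -0.93 (*Gap43*), -0.66 (*Tubb2b*), -0.44 (*Stmn2*) and -0.25 (*Dpysl3*). CPM in the text are per total UMIs, and the fold changes are those of the TMM fit.

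Among the membrane proteins of the growth cone, *Gap43* and *Basp1* went apart. *Gap43* ranged from 1234 to 1671 CPM (median 1463) in the 10 e15.5 libraries and from 619 to 1111 CPM (median 637) at p1. In CPM per total UMIs, all p1 libraries lay below all e15.5 libraries. Among the p1 libraries, library 3 lay far above the others, which reached at most 684 CPM. Division by the TMM factors (0.951 for p1 library 3, 1.07 for e15.5 library 2) brought p1 library 3 into the e15.5 range. The fitted log2 fold change of *Gap43* was -0.82 (SE 0.109, adjusted p = 1.95e-06 by edgeR's quasi-likelihood test), and its median rank went from 49 to 134.5. *Basp1* ranged from 2022 to 2461 CPM (median 2158) at e15.5 and from 1689 to 2341 CPM (median 1949) at p1. These ranges overlapped, and the log2 fold change of 0.06 (SE 0.0739, adjusted p = 0.494) did not pass the test, with an interval of -0.08 to 0.21. The sign of the *Basp1* value turned under total UMI scaling (log2 fold change -0.18, adjusted p = 0.0547) and under limma (-0.44, adjusted p = 0.00423).

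The 4 stathmins differed from each other. *Stmn2* (SCG10), which is anchored to vesicle membranes and abundant in neurons, ranged from 4181 to 5036 CPM (median 4557) at e15.5 and from 2229 to 4204 CPM (median 2949) at p1. In CPM per total UMIs, only p1 library 3, the shallow one, reached into the e15.5 range. Division by the TMM factors (0.906 for p1 library 2, 1.09 for e15.5 library 6) brought p1 library 2 into it as well. The log2 fold change of *Stmn2* was -0.35 (SE 0.107, adjusted p = 0.00787). *Stmn3* (SCLIP) ranged from 926 to 1110 CPM (median 1037) at e15.5 and from 696 to 939 CPM (median 841) at p1. The ranges of *Stmn3* overlapped, and its log2 fold change of -0.06 (SE 0.0680, adjusted p = 0.484, interval -0.19 to 0.08) did not pass the test, though it did under total UMI scaling (-0.30, adjusted p = 0.00145) and under limma (-0.64, adjusted p = 0.000134). *Stmn4* (RB3) ranged from 233 to 376 CPM (median 341) at e15.5 and from 99.2 to 176 CPM (median 147) at p1, without overlap, with a log2 fold change of -0.96 (SE 0.122, adjusted p = 1.12e-06).

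*Stmn1*, the cytosolic stathmin that proliferating cells also make, ranged from 122 to 332 CPM (median 175) at e15.5 and from 14.9 to 45.8 CPM (median 33.5) at p1. The log2 fold change was -2.18 (SE 0.229, adjusted p = 8.85e-08), a 4.52-fold lower level with no overlap of libraries. A near-identical copy limits this value. The processed pseudogene *Gm11223* (chr4:69925630-69926079, minus strand, GRCm38) matched the *Stmn1* 3′ end at 99.8% over 404 bases, and it held 1737 UMIs against 5318 for *Stmn1* in the e15.5 wells and 533 against 742 at p1. With both rows added together the level was 256 CPM ± 88.0 (n = 10) at e15.5 and 54.9 CPM ± 25.6 (n = 6) at p1, with a log2 fold change of -1.80 (adjusted p = 2.21e-06). For the other genes copies of at least 95% identity over 100 bases were found only for *Tubb3* (*Tubb6*, 27 UMIs at e15.5 and 174 at p1, under 1% of the *Tubb3* UMIs).

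Within the stathmin family *Stmn2* kept its share of UMIs, at 74.7% ± 1.49 (n = 10) at e15.5 and 74.7% ± 3.85 (n = 6) at p1. *Stmn3* took 16.8% ± 0.513 and 20.9% ± 2.31, *Stmn4* 5.38% ± 0.501 and 3.64% ± 1.29, and *Stmn1* 3.12% ± 1.14 and 0.847% ± 0.405. The ranges over libraries did not overlap for *Stmn1* (1.89% to 5.58% against 0.282% to 1.25%), and they did for the 3 others.

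The beta-tubulins also split. *Tubb3*, the neuronal beta-tubulin used as a general marker of neurons, ranged from 1674 to 2266 CPM (median 1998) at e15.5 and from 1405 to 1875 CPM (median 1794) at p1. The libraries overlapped, and the log2 fold change of 0.02 (SE 0.0883, adjusted p = 0.835, interval -0.15 to 0.20) did not pass the test. Its sign turned under total UMI scaling (-0.22, adjusted p = 0.0337) and under limma (-0.44, adjusted p = 0.00274), where it was called lower. *Tubb2b* ranged from 1235 to 1890 CPM (median 1572) at e15.5 and from 775 to 999 CPM (median 824) at p1. No p1 library reached an e15.5 library, and the log2 fold change of *Tubb2b* was -0.65 (SE 0.0944, adjusted p = 5.63e-06).

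*Dcx* showed the largest difference of the 10. It ranged from 633 to 809 CPM (median 727) at e15.5 and from 56.7 to 96.9 CPM (median 71.2) at p1, and in the sums over wells it rested on 24729 and 1497 UMIs. The log2 fold change was -3.18 (SE 0.104, adjusted p = 6.13e-15), 9.04-fold lower at p1, and the median rank went from 122 to 2694. *Dpysl3* ranged from 2043 to 2540 CPM (median 2341) at e15.5 and from 1364 to 1698 CPM (median 1587) at p1. Those ranges did not overlap, and the log2 fold change of *Dpysl3* was -0.29 (SE 0.0798, adjusted p = 0.00361), 1.22-fold lower.

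**Figure D2:**
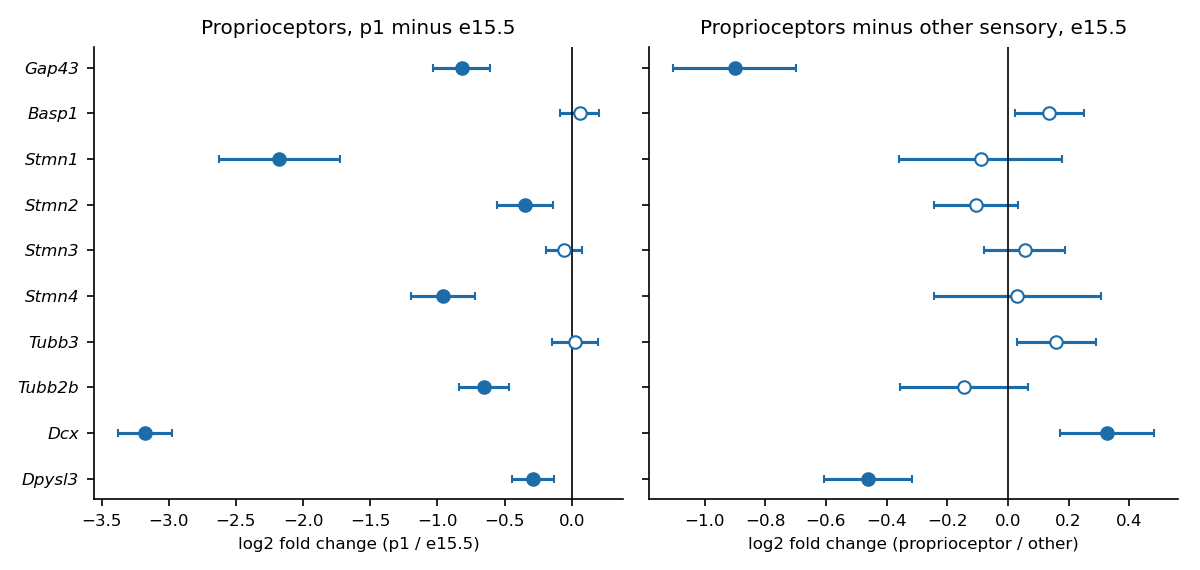
Log2 fold changes of the 10 genes (edgeR, points) with 95% intervals (bars), on the left for p1 over e15.5 proprioceptors and on the right for proprioceptors over other sensory neurons at e15.5. The 2 horizontal axes differ in range, filled points passed an adjusted p of 0.05, and Dcx (-3.18 and 0.33) lies on opposite sides of 0 in the 2 panels.

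Because sums weigh deep wells more, single wells were also described. Over the 279 e15.5 wells the 5th and 95th percentiles of *Dcx* were 464 and 1040 CPM, those of *Stmn1* 65.2 and 299 CPM and those of *Tubb2b* 1136 and 3606 CPM. None of the 306 p1 wells reached that 5th percentile for *Dcx* (up to 0.980% of wells would still be allowed by a count of 0), while 26 did for *Stmn1*, 31 for *Gap43*, 36 for *Stmn2*, 40 for *Tubb2b*, 91 for *Stmn4*, 99 for *Dpysl3*, 125 for *Stmn3* and 182 each for *Tubb3* and *Basp1*. With every well thinned to 10000 UMIs, a *Dcx* UMI was found in 278 of 279 e15.5 wells (99.6%, exact 95% interval from 98.0% up) and in 142 of 306 p1 wells (46.4%, interval 40.7% to 52.2%), against 279 and 250 before thinning. For *Stmn1* the thinned counts were 215 of 279 (77.1%) and 69 of 306 (22.5%, 18.0% to 27.6%), against 276 and 189 before thinning, and for *Stmn4* they were 263 and 208, against 278 and 289. The other 7 genes had a UMI in at least 96.7% of the thinned wells at either age. These intervals cover counting error only.

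**Figure D3:**
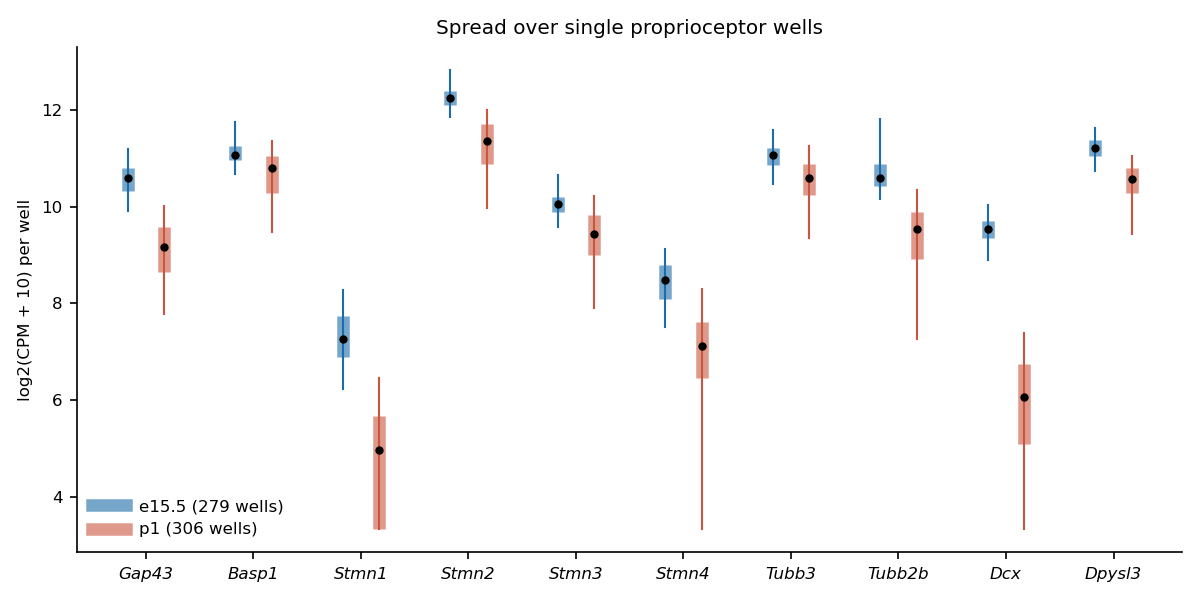
Spread of each gene over single proprioceptor wells, as log2(CPM + 10), for 279 e15.5 wells (blue) and 306 p1 wells (red). Thick bars span the quartiles, thin lines the 5th to 95th percentiles and dots the medians, and Dcx is the only gene of the 10 whose lines do not overlap between ages.

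The level of these genes went with depth in the p1 wells. Over wells of 1 library, Spearman's rho of the CPM with the well's UMIs had a median of 0.72 for *Stmn2*, 0.61 for *Stmn3* and 0.49 for *Basp1* over 5 p1 libraries, and was above 0 for all 10 genes, the lowest being *Stmn4* at 0.12. At e15.5 (8 libraries) the medians ran from -0.52 for *Stmn2* to 0.27 for *Dcx*. With a floor of 50000 UMIs per well at both ages, the same 7 genes were called lower, with log2 fold changes of -3.21 for *Dcx*, -0.97 for *Stmn4*, -0.88 for *Gap43* and -0.35 for *Stmn2*. That floor was chosen after the data were seen.

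Wells of another kind gave the level at which these genes appear outside neurons. The 366 connective tissue wells of the e15.5 libraries (*Col1a1* plus *Col1a2* at 1000 CPM or more, *Avil* plus *Isl1* under 100 CPM) had a median depth of 28259 UMIs, and in them the 5 postmitotic neuron markers summed to 111 CPM. The 10 genes took 0.165% of UMIs there (0.105% to 0.259%, 10 libraries). *Dcx* stood there at a median over libraries of 51.3 CPM and a mean of 77.8 CPM, which fell to 48.3 CPM without library 10 (343 CPM in 5 wells). All 6 p1 proprioceptor sums (56.7 to 96.9 CPM) lay above that median, and the highest of the other connective tissue libraries stood at 97.8 CPM. With wells thinned to 10000 UMIs, 77 of 366 connective tissue wells held a *Dcx* UMI (exact interval up to 25.6%), against 142 of 306 p1 proprioceptor wells (from 40.7%). This thinning was added after the data were seen. *Stmn1* stood at 49.0 CPM (30.8 to 85.6) in connective tissue wells, above its p1 mean of 32.2 CPM, and after thinning 107 of 366 held a UMI (29.2%, 24.6% to 34.2%) against 69 of 306. In connective tissue wells *Stmn1* took 15.3% of the stathmin UMIs, against 3.12% in e15.5 proprioceptors. Their *Stmn1* level may thus hold transcripts of their own and cannot serve as a floor of detection. Whether p1 proprioceptors make *Stmn1* was therefore not tested by this comparison. The connective tissue wells come from the other age and other libraries, and how far connective tissue cells make the transcripts themselves was not tested. *Basp1* (481 CPM), *Dpysl3* (330 CPM), *Stmn2* (242 CPM), *Tubb2b* (204 CPM), *Tubb3* (113 CPM), *Gap43* (94.1 CPM), *Stmn3* (50.2 CPM) and *Stmn4* (13.3 CPM) stood far below their proprioceptor levels at either age.

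Proprioceptor wells with glial transcripts (*Apoe* plus *Fabp7* at 200 CPM or more), 65 at e15.5 and 50 at p1, gave a share of 1.36% (1.18% to 1.62%) and 1.06% (0.888% to 1.25%) of UMIs for the 10 genes. In them *Dcx* stood at 608 CPM and 68.1 CPM, and *Gap43* at 1271 CPM and 651 CPM.

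**Figure D4:**
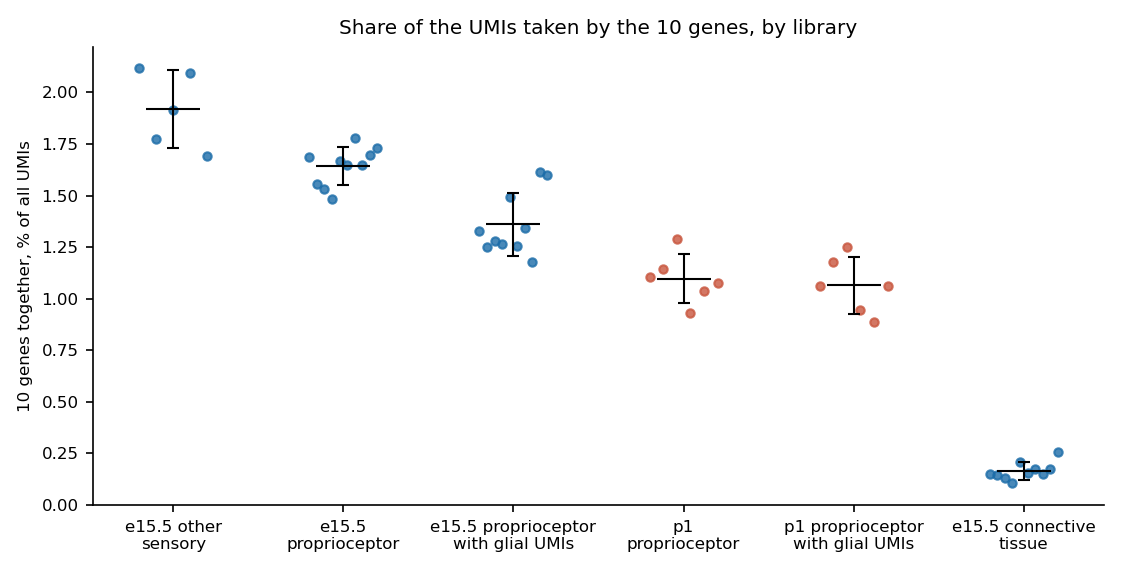
Share of all UMIs taken by the 10 genes together, in percent, by class of wells. Points are libraries (e15.5 blue, p1 red) and bars the mean ± SD. Other sensory neurons reach 1.69% to 2.12%, proprioceptors 1.48% to 1.78% at e15.5 and 0.931% to 1.29% at p1, and connective tissue wells at most 0.259%.

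At e15.5 the proprioceptors were set beside other sensory neurons of the same libraries (*Etv1* under 300 CPM, *Avil* plus *Isl1* at 200 CPM or more). Such a well also held at least 10000 UMIs and at least 1 UMI each of *Avil* and *Isl1*. Its *Apoe* plus *Fabp7* lay under 200 CPM and its *Col1a1* plus *Col1a2* under 1000 CPM. There were 32 such wells, and 28 of them, in the 5 libraries with at least 3 (libraries 1, 3, 5, 9 and 10), entered the test. These wells held *Ntrk2* at 292 CPM on average, against 4.20 CPM in proprioceptors of all libraries. Their makeup differed between libraries, with *Ntrk3* from 108 to 1949 CPM. In the fit with the library as a block, 9.29% of 10971 genes were called higher in proprioceptors and 8.34% lower. Of the 10 genes, 2 were called lower in proprioceptors (*Gap43* and *Dpysl3*) and 1 higher (*Dcx*), with a median log2 fold change of -0.03 over the 10 and 0.00 over all genes.

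*Gap43* was lower in proprioceptors in 5 of 5 libraries. It stood at 2632, 2308, 3559, 3586 and 2344 CPM in the other sensory neurons of libraries 1, 3, 5, 9 and 10, and at 1465, 1283, 1461, 1605 and 1671 CPM in their proprioceptors. The lowest of the first lay above the highest of the second, with a log2 fold change of -0.90 (SE 0.104, adjusted p = 0.000349). *Dpysl3* stood at 3752, 3418, 3171, 3220 and 2952 CPM in other sensory neurons and at 2450, 2056, 2349, 2380 and 2540 CPM in proprioceptors. It too was lower in 5 of 5 libraries without overlap, with a log2 fold change of -0.46 (SE 0.0745, adjusted p = 0.00234). *Gap43* and *Dpysl3* stayed past the threshold in each of the alternatives tried.

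*Dcx* was higher in proprioceptors in 5 of 5 libraries. Its values were 669, 598, 624, 685 and 572 CPM in other sensory neurons and 801, 723, 809, 743 and 805 CPM in proprioceptors. The ranges did not overlap, and the log2 fold change was 0.33 (SE 0.0789, adjusted p = 0.0183). This call was lost with DESeq2 (adjusted p = 0.0532), without library 3 (0.0622), 5 (0.0596) or 10 (0.0785), and under 3 further alternatives (adjusted p of 0.0625 to 0.276).

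The other 7 genes did not pass this test. *Tubb3* (log2 fold change 0.16, adjusted p = 0.138, interval 0.03 to 0.29) and *Basp1* (0.14, adjusted p = 0.144, interval 0.02 to 0.25) were higher in proprioceptors in 5 of 5 libraries. *Tubb2b* (-0.15, adjusted p = 0.417), *Stmn2* (-0.11, adjusted p = 0.361), *Stmn1* (-0.09, adjusted p = 0.722), *Stmn3* (0.06, adjusted p = 0.648) and *Stmn4* (0.03, adjusted p = 0.915) had values on both sides between libraries. The widest intervals were those of *Stmn1*, from -0.36 to 0.18, and of *Stmn4*, from -0.24 to 0.31.

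**Figure D5:**
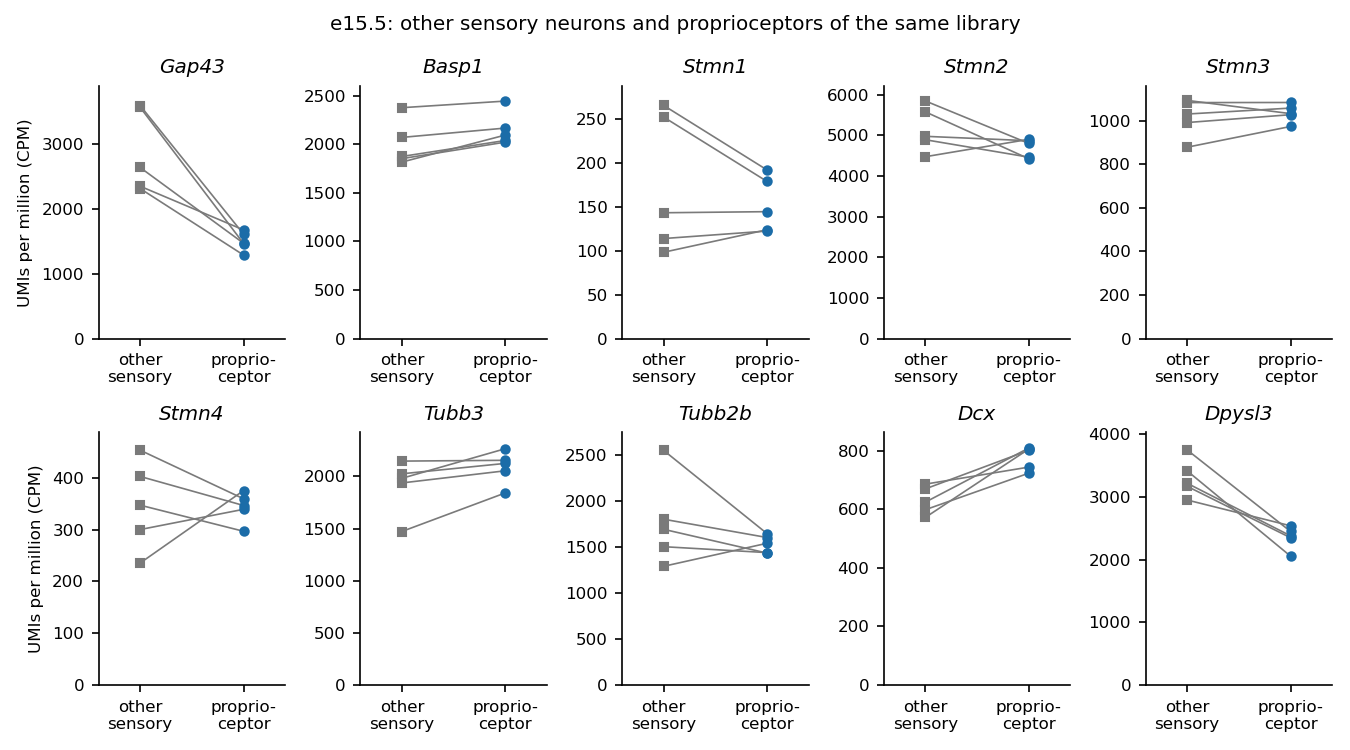
Level (CPM, linear axis from 0) of each gene at e15.5 in other sensory neurons (grey squares) and proprioceptors (blue circles), with a line for each of the 5 libraries that hold both. Every line of Gap43 and Dpysl3 goes down towards proprioceptors and every line of Dcx goes up.

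Within proprioceptors of 1 library the 10 genes varied together to a moderate degree. Over the 45 pairs, the median within-library Pearson r of log2(CPM + 10) across wells had a median of 0.36 at e15.5 (8 libraries with at least 10 wells) and 0.34 at p1 (5 libraries). The closest pairs were *Stmn2* with *Tubb3* at e15.5 (0.69) and *Stmn2* with *Basp1* at p1 (0.71). The loosest was *Stmn2* with *Dcx* at e15.5 (-0.05). Wells of 1 library share its preparation, and depth goes with these levels, so the values are descriptions.

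Other genes of the axonal cytoskeleton were read from 6 lists. The counts stand beside the shares of all genes, which were 30.7% higher and 32.3% lower at p1, or 21.3% and 45.0% under total UMI scaling, and 9.29% higher and 8.34% lower in proprioceptors between classes. Of the 7 relatives of *Dpysl3* and *Dcx*, 6 were lower at p1 and none higher, with a median log2 fold change of -1.07, and 6 were lower also under total UMI scaling. *Dclk3*, a doublecortin-like kinase, was 3.05-fold lower (17.1 CPM to 3.88 CPM, adjusted p = 1.14e-06) and *Dpysl4* (CRMP3) 2.61-fold lower (to 28.3 CPM, adjusted p = 3.99e-09). In the class comparison *Dclk2* was higher in proprioceptors (log2 fold change 0.52, adjusted p = 0.0280), *Crmp1* lower (-0.29, adjusted p = 0.0442) and 5 of 7 were not called. *Dclk2* kept its call in 9 of 16 alternatives and *Crmp1* in 7 of 17.

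Of 12 further tubulins tested, 4 were higher at p1, 3 lower and 5 not called, but 3 higher and 6 lower under total UMI scaling, so the counts lay near the shares of all genes (30.7% and 32.3%). *Tuba1a*, the main alpha-tubulin of young neurons and the most abundant named here, went from 7055 CPM ± 391 (n = 10) to 3294 CPM ± 607 (n = 6), with a log2 fold change of -0.86 (adjusted p = 9.72e-08). *Tubb4a* fell by 0.64 on the log2 scale. *Tuba8* rose from 5.40 CPM to 130 CPM (24.1-fold, adjusted p = 2.89e-09) and *Tuba4a* from 65.3 CPM to 198 CPM (3.72-fold, adjusted p = 9.87e-13). Between classes 1 of 9 was higher in proprioceptors (*Tubg2*, log2 fold change 0.68) and 2 lower (*Tubb4b* at -0.49 and *Tuba1b* at -0.21). *Tubg2* kept its call in 8 of 16 alternatives, *Tubb4b* in 12 of 17 and *Tuba1b* in 6 of 17.

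Among 30 microtubule-associated and end-binding proteins, 9 were higher at p1 and 13 lower (7 and 15 under total UMI scaling), against 30.7% and 32.3% of all genes (21.3% and 45.0%). *Map1a*, a structural protein of mature axons and dendrites, rose 6.49-fold from 485 CPM to 2612 CPM (adjusted p = 1.24e-11) and *Map7d2*, a kinesin-binding protein, 5.48-fold from 258 CPM to 1179 CPM. *Map7* fell by 1.04 and *Katna1*, a subunit of the severing enzyme katanin, by 0.89 on the log2 scale. Between classes 6 of 30 were higher in proprioceptors, with *Map7* (log2 fold change 0.94, adjusted p = 0.000339) and *Map2* (0.75, adjusted p = 0.00163) first. Lower were 3, with *Nav2* at -1.52 and *Ttl*, which adds tyrosine to tubulin, at -0.75. *Map7* kept its call in 17 of 17 alternatives. When wells were thinned, *Map2* (0.60, adjusted p = 0.0627), *Nav2* (-1.52, adjusted p = 0.160) and *Ttl* (-0.57, adjusted p = 0.389) lost theirs.

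Of 30 actin and membrane proteins of the growth cone, 7 were higher and 13 lower at p1 (6 and 17 under total UMI scaling), against the same shares of all genes. *Fscn1*, the actin bundler of filopodia, was 2.97-fold lower (360 CPM to 100.1 CPM, adjusted p = 3.47e-08) and *Marcks*, a membrane-bound actin regulator, 2.45-fold lower (640 CPM to 216 CPM, adjusted p = 4.01e-09). *Cap1*, which recycles actin monomers, and *Nrn1* (neuritin) were higher by 2.11 and 2.10 on the log2 scale, from 8.36 and 22.7 CPM. *Nrn1* was also 13.4-fold lower in proprioceptors than in other sensory neurons at e15.5 (21.8 CPM against 294 CPM, adjusted p = 4.36e-06). Of 29 tested between classes, 4 were higher in proprioceptors, with *Cap2* (log2 fold change 1.94) and *Gpm6b* (1.52) first, and 6 lower, with *Gpm6a* at -2.53. *Cap2* kept its call in 14 of 15 alternatives, and *Gpm6b* and *Gpm6a* each in 15 of 16.

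Of 20 axonal motors, 10 were higher and 6 lower at p1, which became 7 and 8 under total UMI scaling, the lower count being near the 32.3% of all genes. *Kif1b* and *Kif21a*, kinesins, rose by 1.07 each on the log2 scale (adjusted p = 3.94e-09 and 1.64e-09), and the dynein light chain *Dynll1* and the dynactin subunit *Dctn3* fell by 1.01 and 0.59. Between classes none was called higher in proprioceptors and 2 lower, *Dync1i1* (log2 fold change -0.79) and *Kif21a* (-0.35). *Kif21a* kept its call in 7 of 17 alternatives, and *Dync1i1* lost its call when wells were thinned (-0.15, adjusted p = 0.808).

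Of 12 growth-associated transcription factors tested, 5 were higher at p1 and 4 lower (4 and 5 under total UMI scaling), the lower count being again near the share of all genes (32.3%). *Sox11* went from 500 CPM ± 52.5 to 116 CPM ± 16.9 (3.59-fold lower, adjusted p = 3.22e-11) and *Jun* from 470 CPM to 156 CPM (2.58-fold lower, adjusted p = 1.20e-08). *Klf9*, a repressor of axon growth in other neurons, rose 13.3-fold from 5.21 CPM to 65.9 CPM (adjusted p = 1.48e-11), and *Klf7* rose by 0.65 on the log2 scale. Of 11 tested between classes, *Jun* was 2.94-fold higher in proprioceptors (453 CPM against 160 CPM, adjusted p = 4.48e-05), and 3 were lower, among them *Myc* (log2 fold change -1.87) and *Klf7* (-0.85). *Myc* kept its call in 14 of 15 alternatives.

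Over the 16 libraries, the genes outside the list whose log2 CPM went most closely with the mean of the 10 genes, among 4072 genes of at least 50 CPM, were *Tbc1d16* (Pearson r = 0.99), *Jpt1* (0.99), *Stx1a* (0.99), *Cnih2* (0.99) and *4931428F04Rik* (0.98). Each was lower at p1, *Jpt1* at 350 CPM (288 to 405) against 82.4 CPM (64.6 to 89.5) and *Stx1a*, a syntaxin of vesicle fusion, at 117 CPM against 34.8 CPM. These values mostly follow the gap between the ages, and they are given with no p.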

How the data were processed

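The authors prepared CEL-Seq2 libraries of 96 wells, and scruff, an R package, gave them the UMI number of each gene in each well, and the submitters' processing notes name the builds mm10 and GRCm38. The deposited values are these raw counts, with no gene or cell filtered out. Ensembl identifiers were matched to GENCODE M21 symbols (49326 of 49671, and 0.0617% of the counts had none). Samples were grouped by age. Nothing says whether libraries came from separate animals, so p-values measure the spread between libraries, which may be technical. No 2 wells had identical counts, and wells with 2 cells were not removed.

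Wells were assigned by the thresholds in the text, with the floor of 10000 UMIs for every class. Counts were summed per library and class where at least 3 wells were found. Sums were tested with edgeR (version 4.0.16, R version 4.3.3; filterByExpr, TMM, quasi-likelihood F test, Benjamini-Hochberg over all genes, threshold 0.05), with the library as a block between classes, since both sums of 1 library come from 1 preparation (deviations correlated at a median r of 0.31, lowest 0.04). The SE is the size of the log2 fold change divided by the square root of F, and intervals are 95% from a normal approximation. Alternatives used DESeq2 (version 1.42.0), limma (version 3.58.1), other scalings, floors and limits, and each library left out. All 10 genes were named, and of each list the 2 called genes with the largest rise and the 2 with the largest fall. The genes and lists were chosen with earlier results of these data known. Copies were searched with blastn over the last 500 bases of each transcript. No protein sequences were used here.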

Additional observations from a re-analysis of the deposited data

Results flagged for a closer look

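Among 30 groups of 4 to 10 libraries checked (the 10 genes in 3 groups of wells), 1 value stood apart from its group, where chance alone marks about 1 group in 20. In p1 library 3 *Gap43* was at 1111 CPM in proprioceptor wells, and the other p1 libraries lay between 619 and 684 CPM. The gap to the nearest library was 0.868 of the whole range. That library has 8 proprioceptor wells and 134145 UMIs in them. Without it the log2 fold change of *Gap43* was -0.93 in place of -0.82.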

How the results depend on the processing

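Both comparisons were repeated under alternatives of scaling, filter, test, well limits and libraries. *Dcx*, *Stmn1*, *Stmn4*, *Gap43* and *Tubb2b* were called lower at p1 under each of them. The library numbers do not pair the ages: deviations of same-numbered libraries correlated at -0.29 to 0.17 (median -0.18), and 0 of 6 p1 libraries went best with their own number. With the replicate block, over 6 numbers and fewer libraries, *Stmn2* (log2 fold change -0.31, adjusted p = 0.0912) and *Dpysl3* (-0.23, adjusted p = 0.116) lost the call, and 3516 genes were higher and 3346 lower. The genes not called at p1 turned sign. *Tubb3* was at -0.22 with total UMIs, -0.072 with no filter, -0.026 with at least 10 wells, -0.10 when thinned and -0.44 with limma, and from -0.0086 to 0.061 without 1 library. *Basp1* was at -0.18, -0.031, -0.023, -0.082 and -0.44 under the same alternatives, and *Stmn3* at 0.00017 with a floor of 50000 UMIs (added after the data were seen). Between classes *Stmn4* turned to -0.0035 with no replicate block, -0.23 with at least 5 wells, -0.071 with *Etv1* under 100 CPM, -0.047 with no glial limit and -0.23 when thinned, and ran from -0.15 to 0.13 without 1 library. *Stmn1* ran from -0.20 to 0.019 without 1 library, and *Stmn3* turned to -0.010 with no glial limit. Genes called at p1 were 5971 higher with no filter (more genes tested), 929 higher with limma, and 1976 higher and 1894 lower when thinned (fewer genes tested). Between classes, 1692 were higher with no filter, 573 lower with at least 5 wells, 556 higher and 536 lower with *Etv1* under 100 CPM, and 187 and 157 when thinned. Without 1 library the lower count ran from 588 to 863, with 596 without library 5 and 588 without library 9. *Tubb3* passed between classes with no filter (0.23, adjusted p = 0.0274). The causes were not tested beyond the numbers of genes. The class comparison rests on 28 other sensory wells, which limits what it can show, and genes near or below 50 CPM at p1 rest on few UMIs in library 3. Of 298 values of list genes between classes under alternatives, 59 kept direction but lost the call, as did 1 of 722 between ages (*Klf7* with limma, adjusted p = 0.0703).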
